A study of Arabidopsis thaliana with 23 samples.

Results

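AT2G32020, AT2G41730 and AT5G14730 are 3 Arabidopsis genes that were high in seedlings treated with PEO-IAA, a compound that blocks auxin perception. The genes were selected on their signals with PEO-IAA, which lay far above those of mock, and were followed here across all 9 treatment groups, each group relative to the mock of its own replicate set. Each gene had 1 probe set naming it alone, so that they make up 3 of the 13355 genes that the array's 22810 probe sets name singly, and all 3 passed the filter on dim probe sets. The gene table gives these genes a locus code and clone names but no descriptive symbol, and no role is assigned to them here.

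Whole seedlings of ecotype Col-0 were grown for 6 or 7 days on agar and 1 day in shaken liquid medium, and then treated for 3 h. Replicates 1 to 3 hold 10 µM PEO-IAA, 10 µM PEO-IAA plus 1 µM IAA, 1 µM IAA, 30 µM kynurenine and mock, with 3 arrays each. Replicates 4 and 5 hold 10 µM PPBo, 10 µM PPBo plus 1 µM IAA, 100 nM IAA and mock, with 2 arrays each, so that the IAA dose given alone differs between the sets. All plants share the wild-type Col-0 background, and the labels do not say whether replicates are separate cultures. The p-values therefore rest on a spread that may be only technical.

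Auxin acts by bringing Aux/IAA repressors to the TIR1/AFB receptors, after which the repressors are degraded and auxin-induced genes are transcribed. IAA is the main natural auxin, and PEO-IAA is a derivative of IAA that occupies the receptor without allowing that step. Kynurenine and PPBo act earlier, on the TAA1 and YUCCA enzymes that make IAA from tryptophan. Plants given a foreign compound often raise glutathione transferases and glycosyltransferases, enzymes that attach glutathione or sugars to such molecules.

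The array is the Affymetrix ATH1 chip, and a signal is the MAS5 intensity of a probe set on a linear scale. Changes are on the scale of log2(signal + 7.56), which understates the change of dim probe sets, and are given ± SE. A probe set was called at a Benjamini-Hochberg adjusted p below 0.05 over 15922 tested probe sets in a limma fit of all 23 arrays. The probe set of AT2G41730 carries the suffix that Affymetrix gives to probe sets with probes that may also bind other transcripts, so its values may include other RNA. AT2G32020 was dim outside the PEO-IAA groups, with a mean signal of 59.5 over the 17 arrays without PEO-IAA, and it passed the filter, set at a mean of 61.8, only through the arrays with PEO-IAA.

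The third 1 µM IAA array stood apart. The ratio of 3′ to 5′ signal of its GAPDH controls, which rises when RNA is degraded, was 24.4, against 1.19 to 2.05 on the other 22 arrays. Its correlations with other arrays, taken across probe sets, had a median of 0.925, where those of the other 22 had 0.968 to 0.977. Results of the 3 genes and of the gene lists that compare a group with 1 µM IAA, or 1 µM IAA with mock, are given with and without it. The 6 early auxin-induced genes on a list drawn up with earlier results of these data known, such as GH3.3 and LBD29, were all called higher with 1 µM IAA against mock, where 0.967% of tested probe sets were called higher, and 5 of the 6, all but LBD16, were called without the third 1 µM IAA array.

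With PEO-IAA alone, the contrast that chose the genes, AT2G32020 had signals of 274, 730 and 627 on the PEO-IAA arrays, against 55.1, 39.4 and 58.9 on the mock arrays. AT2G41730 had 1261, 1774 and 2182 with PEO-IAA, against 603, 183 and 211 in mock. AT5G14730 had 559, 832 and 1008 with PEO-IAA, against 231, 160 and 231 in mock. In each gene the lowest PEO-IAA array lay above the highest mock array, as it did in 6.12% of tested probe sets, and replicate 1 was the lowest of the PEO-IAA arrays.

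The log2 changes with PEO-IAA were 3.13 ± 0.37 for AT2G32020, 2.54 ± 0.48 for AT2G41730 and 1.89 ± 0.24 for AT5G14730, given without a test because they chose the genes. In this contrast 0.358% of tested probe sets were called higher. Next to AT2G32020 and AT2G41730 by size of change, among those naming 1 gene, stood the tau-class glutathione transferases GSTU25 (2.85 ± 0.49) and GSTU22 (2.26 ± 0.23) and the glycosyltransferase UGT73B4 (2.68 ± 0.31). AT5G14730 lay between AT4G37290 (1.94 ± 0.34) and AT5G40690 (1.73 ± 0.34).

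**Figure D1:**
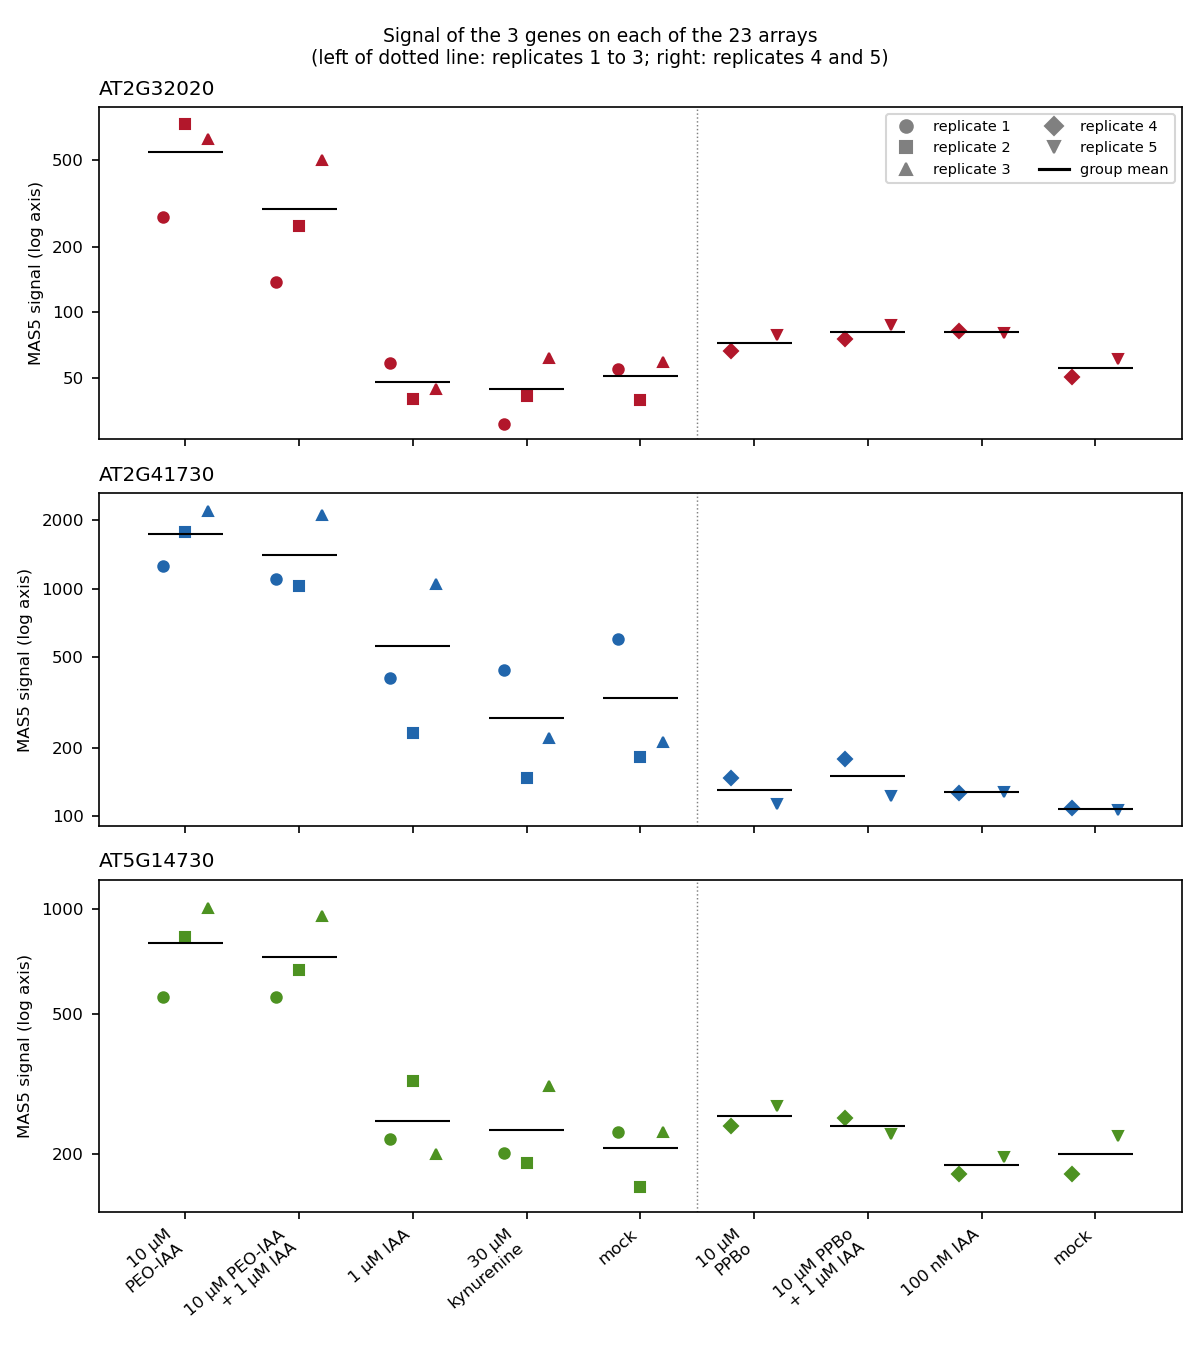
MAS5 signal (log axis) of AT2G32020, AT2G41730 and AT5G14730 on each array, with 1 point per array, the replicate number as the marker and the group mean as a line. The arrays with PEO-IAA, with or without IAA, lie above all others for AT2G32020 and AT5G14730, while for AT2G41730 the third 1 µM IAA array at 1045 reaches the lowest array with PEO-IAA plus IAA at 1024.

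The comparison of PEO-IAA plus IAA with 1 µM IAA asks what PEO-IAA does when IAA is also present. Neither of its groups chose the genes, although the arrays that did are part of the fit that estimates the spread. The comparison itself was chosen with earlier results of these data known, so its p-values are not independent evidence. AT5G14730 and AT2G32020 were called higher in it, the call of AT2G32020 with the limit that the gene entered the test only through arrays with PEO-IAA. AT2G32020 had signals of 138, 250 and 502 with PEO-IAA plus IAA, against 58.6, 40.1 and 44.3 with 1 µM IAA. The groups did not overlap, as in 4.99% of tested probe sets that were higher, and the log2 change was 2.29 ± 0.37 (limma, adjusted p = 0.00503, or 0.00761 with no filter on dim probe sets), about 4.89-fold. AT5G14730 had 562, 668 and 954 with PEO-IAA plus IAA, against 221, 323 and 200 with 1 µM IAA, again without overlap. Its log2 change was 1.52 ± 0.24 (limma, adjusted p = 0.00503), about 2.87-fold.

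AT2G41730 had 1101, 1024 and 2104 with PEO-IAA plus IAA, against 405, 232 and 1045 with 1 µM IAA. Here the groups overlapped at the third 1 µM IAA array, the one with the high GAPDH ratio, and the log2 change of 1.51 ± 0.48 was not called (limma, adjusted p = 0.281). Without that array it was 2.09 ± 0.46 and still not called (adjusted p = 0.0581), while AT2G32020 (2.25 ± 0.42, adjusted p = 0.0218) and AT5G14730 (1.39 ± 0.27, adjusted p = 0.0264) were called. In this comparison 0.251% of tested probe sets were called higher. From the highest change down, AT2G32020 was at place 5, AT5G14730 at 24 and AT2G41730 at 25 of the 15922. With only the arrays of PEO-IAA plus IAA and 1 µM IAA in the fit, so that the arrays that chose the genes played no part, neither call held: the adjusted p was 0.372 for AT2G32020 and 0.338 for AT5G14730, and limma called 0 of all probe sets.

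PEO-IAA plus IAA against mock shares its mock arrays with the contrast that chose the genes, so its p-values are not independent of that choice. All 3 genes were called higher in it. AT5G14730 averaged 728 ± 203 with PEO-IAA plus IAA and 207 ± 40.5 in mock (SD, n = 3 each), a log2 change of 1.76 ± 0.24 (limma, adjusted p = 0.000619). AT2G32020 averaged 297 ± 187 with PEO-IAA plus IAA and 51.1 ± 10.4 in mock, a change of 2.20 ± 0.37 (adjusted p = 0.00357). Its call has the limit that the gene entered the test only through arrays with PEO-IAA. AT2G41730 averaged 1410 ± 603 with PEO-IAA plus IAA and 332 ± 235 in mock, a change of 2.19 ± 0.48 (adjusted p = 0.0266). No gene's groups overlapped. Here 0.54% of tested probe sets were called higher and 6.58% were higher on every array. With the replicate number as a block and the 1 µM IAA group left out, limma called 809 probe sets in either direction, against 181 without the block, and the 3 calls held. This blocked fit, used again below, was chosen after seeing the data.

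The call of AT2G41730 was the weakest of these. Its first mock array, at 603, lay well above the other mock arrays at 183 and 211. With the second mock array left out the change was 1.88 (limma, adjusted p = 0.192), with the third mock array left out it was 1.98 (adjusted p = 0.123), and with the third PEO-IAA plus IAA array left out it was 1.86 (adjusted p = 0.193), none of them called. The calls of AT2G32020 and AT5G14730 held whichever array was left out, although that of AT2G32020 ended with only mock and PEO-IAA plus IAA in the fit (adjusted p = 0.104).

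With IAA added to PEO-IAA, the signals of all 3 genes still lay above those of mock, with the limits given above for that comparison. Against PEO-IAA alone, which shares its arrays with the choice of the genes, PEO-IAA plus IAA gave AT2G32020 a log2 change of -0.93 ± 0.37 (limma, adjusted p = 0.517), AT2G41730 -0.34 ± 0.48 (adjusted p = 1) and AT5G14730 -0.13 ± 0.24 (adjusted p = 1). None was called, where 1.35% of tested probe sets were. The blocked fit without the 1 µM IAA group called 693 probe sets, against 215 without the block, and still none of the 3, with an adjusted p of 0.0565 for AT2G32020 in limma. The 95% interval of the change was -1.70 to -0.15 for AT2G32020, -1.36 to 0.67 for AT2G41730 and -0.64 to 0.38 for AT5G14730. The group ranges overlapped in all 3, with 138 to 502 under PEO-IAA plus IAA and 274 to 730 under PEO-IAA alone in AT2G32020. In the same comparison all 6 early auxin-induced genes were called higher, where 0.678% of tested probe sets were.

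None of the 3 genes was called with IAA alone. With 1 µM IAA against mock, which shares the mock arrays, AT2G32020 was at -0.09 ± 0.37 (limma, adjusted p = 0.908), AT5G14730 at 0.24 ± 0.24 (adjusted p = 0.593) and AT2G41730 at 0.68 ± 0.48 (adjusted p = 0.438), where 2.24% of probe sets were called. Without the third 1 µM IAA array the values were -0.05 for AT2G32020, 0.37 for AT5G14730 and 0.10 for AT2G41730, none called. The value of AT2G41730 moved with other single arrays too and was 1.21 without the first mock array and 1.17 without the second 1 µM IAA array (0.10 to 1.21 over all arrays left out singly). With 100 nM IAA, AT2G32020 had 82.2 and 80.4, against 50.3 and 61.2 in the mock of replicates 4 and 5, a change of 0.50 ± 0.45. AT2G41730 was at 0.23 ± 0.59 and AT5G14730 at -0.09 ± 0.30 (limma, adjusted p = 1 for all 3), where 0.358% of probe sets were called in either direction.

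None was called with kynurenine, which lowers IAA synthesis. The log2 changes were -0.20 ± 0.37 for AT2G32020, with a 95% interval of -0.97 to 0.58, -0.23 ± 0.48 for AT2G41730, with -1.24 to 0.78, and 0.15 ± 0.24 for AT5G14730, with -0.36 to 0.67. The adjusted p in limma was 1 for all 3, in a comparison where 0.0126% of probe sets were called, or 2, against 5 in the blocked fit without the 1 µM IAA group. The upper ends of these intervals lie below the changes of the same genes with PEO-IAA plus IAA against mock. Both comparisons use the mock arrays that chose the genes, and kynurenine was not tested against PEO-IAA plus IAA.

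PPBo, the other inhibitor of IAA synthesis, also gave small values. AT2G32020 had 66.6 and 78.6 with PPBo, against 50.3 and 61.2 in mock, a log2 change of 0.34 ± 0.45. AT2G41730 had 148 and 113 with PPBo, against 109 and 107 in mock, a change of 0.25 ± 0.59. AT5G14730 had 239 and 274 with PPBo, against 175 and 225 in mock, a change of 0.36 ± 0.30. None was called (limma, adjusted p = 1 for all 3), where 0.364% of probe sets were. In each gene both PPBo arrays lay above both mock arrays, as they did in 22% of all tested probe sets, so that the order was a common one.

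PPBo plus IAA gave similar values. Against mock the changes were 0.49 ± 0.45 for AT2G32020, 0.43 ± 0.59 for AT2G41730 and 0.27 ± 0.30 for AT5G14730, and against PPBo alone they were 0.15 ± 0.45, 0.18 ± 0.59 and -0.09 ± 0.30. None was called in either comparison (limma, adjusted p = 1 for all), where 0.98% and 0.653% of probe sets were.

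At matched doses, 10 µM inhibitor with 1 µM IAA, the response to PEO-IAA plus IAA was set against the response to PPBo plus IAA, each relative to its own mock. The mock arrays of replicates 1 to 3 also chose the genes, so the values, intervals and p-values here are not independent of that choice. AT2G32020 also entered the test only through arrays with PEO-IAA. The difference was 1.71 ± 0.58 for AT2G32020 (95% interval 0.49 to 2.94), 1.76 ± 0.76 for AT2G41730 (0.16 to 3.36) and 1.49 ± 0.39 for AT5G14730 (0.68 to 2.30), all higher with PEO-IAA plus IAA. None was called over all probe sets, with a limma adjusted p of 0.979 for AT2G32020, 1 for AT2G41730 and 0.457 for AT5G14730, where 0.0502% of probe sets were called. The blocked fit without the 1 µM IAA group called AT5G14730 (limma, adjusted p = 0.00495) among 153 probe sets, against 8 without the block, although the numbers of replicates 4 and 5 were not shown to pair. That fit was chosen after seeing the data. Compound and replicate set differ together here beyond what the mocks take out, and cannot be told apart.

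**Figure D2:**
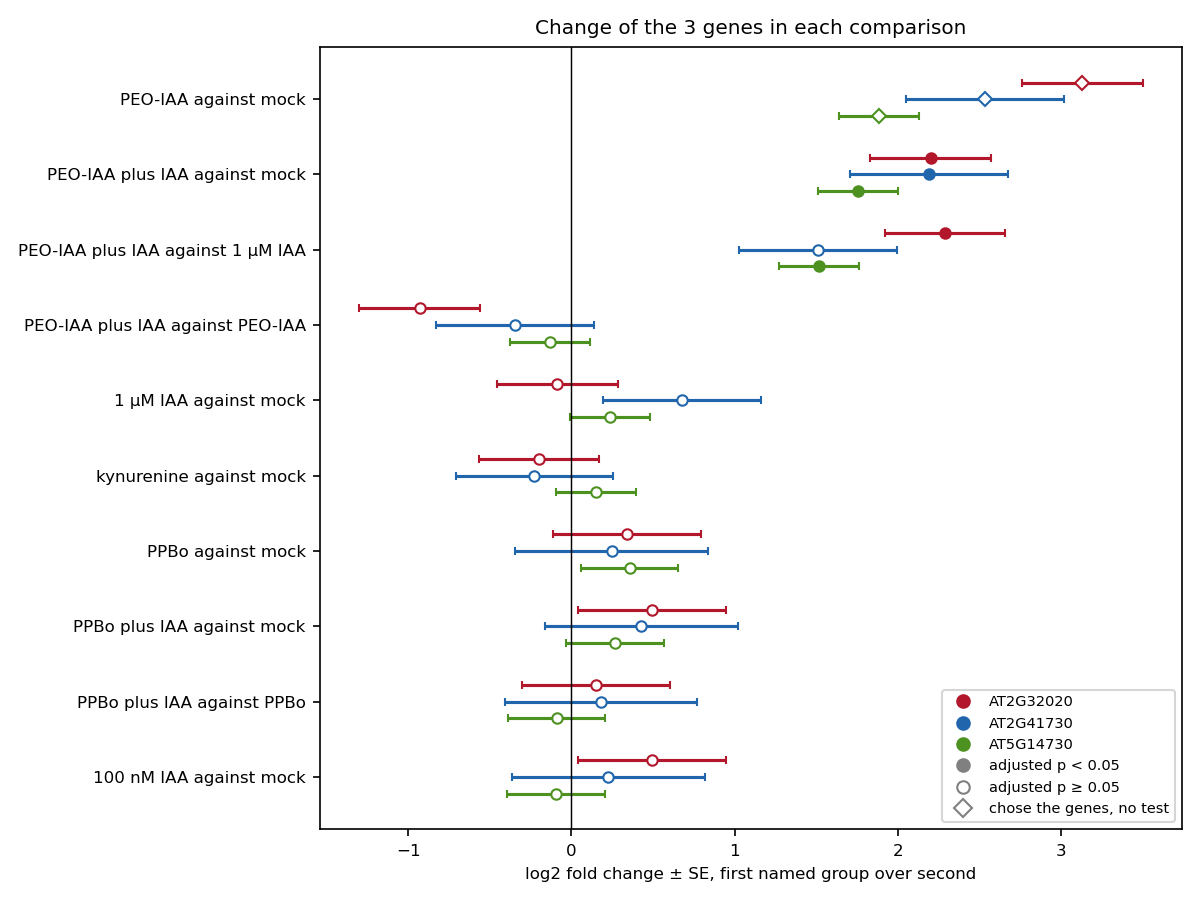
Log2 fold change ± SE of the 3 genes in each comparison, first named group over the second, with filled circles for an adjusted p below 0.05 in limma and open diamonds for the comparison that chose the genes. Changes above 1.5 appear only in the comparisons that have PEO-IAA on one side alone, and the comparisons without PEO-IAA lie between -0.23 and 0.68.

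In order of mean signal, the 2 groups with PEO-IAA came first for every gene. For AT2G32020 the order was PEO-IAA (544 ± 239), PEO-IAA plus IAA (297 ± 187), 100 nM IAA (81.3 ± 1.27), PPBo plus IAA (81.3 ± 8.20), PPBo (72.6 ± 8.50), mock of replicates 4 and 5 (55.7 ± 7.68), mock of replicates 1 to 3 (51.1 ± 10.4), 1 µM IAA (47.7 ± 9.71) and kynurenine (44.6 ± 15.8). Neighbours in this order overlapped except between PEO-IAA plus IAA and 100 nM IAA and between PPBo and the mock below it. The values of both sets stand side by side here, and set and treatment cannot be told apart in an order across them.

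For AT5G14730, PEO-IAA (800 ± 226) and PEO-IAA plus IAA (728 ± 203) overlapped each other and lay clear of PPBo (257 ± 24.4), the next group. All other groups had means from 186 to 248, each overlapping its neighbour. The ratio of mean signal to that of the own mock was 3.86 with PEO-IAA and 3.51 with PEO-IAA plus IAA.

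For AT2G41730 the order followed the replicate set as well. After PEO-IAA (1739 ± 462) and PEO-IAA plus IAA (1410 ± 603) came the other groups of replicates 1 to 3, from 561 ± 428 with 1 µM IAA to 269 ± 151 with kynurenine, and then all groups of replicates 4 and 5, from 150 ± 39.2 with PPBo plus IAA to 108 ± 1.23 in mock. Both mock arrays of replicates 4 and 5 lay below the 3 of replicates 1 to 3. The share of all probe sets with mocks that separate in this way was not counted, so this is not read as particular to AT2G41730. Within replicates 1 to 3 the spread was wide, with an SD of 70.7% of the mean in mock, against 20.3% for AT2G32020 and 19.6% for AT5G14730 in the same arrays.

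The genes also varied together within groups to different degrees. After group means were taken out, the Pearson correlation over the 23 arrays was 0.729 between AT2G32020 and AT5G14730, 0.259 between AT2G32020 and AT2G41730, and 0.117 between AT2G41730 and AT5G14730. On the arrays with PEO-IAA plus IAA, AT2G32020 and AT5G14730 were lowest in replicate 1 and highest in replicate 3. These correlations describe arrays that share extraction and scaling, and carry no test.

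The probe sets most like each gene were taken as the 5 with the highest Pearson correlation of mock-relative values over the 23 arrays, out of 8711 others naming 1 gene. The 23 include the PEO-IAA and mock arrays that chose the genes. Any gene high with PEO-IAA, the other members among them, therefore tends to rank high, and the lists are a description only. GSTU22 was on all 3 lists, at 0.955 with AT2G32020, 0.866 with AT2G41730 and 0.958 with AT5G14730. GSTU25 led the list of AT2G41730 at 0.902, or 0.96 without the third 1 µM IAA array, and was at 0.885 with AT2G32020. UGT73B4 was at 0.886 with AT2G41730 and 0.906 with AT5G14730. AT2G32020 and AT5G14730 were on each other's lists (0.933).

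The remaining genes on these lists were AT4G19880 (0.956 with AT5G14730 and 0.879 with AT2G32020), AT1G76600 (0.912 with AT5G14730), AT2G47890 (0.898 with AT2G32020) and AT2G21640 (0.842 with AT2G41730). All 4 had smaller mock-relative log2 values with PEO-IAA plus IAA, from 0.72 for AT2G21640 to 1.11 for AT1G76600, beside 1.76 to 2.20 for the 3 members. AT4G19880 was bright in every group, with a mean signal of 4329 with PEO-IAA plus IAA and 2278 in mock. AT2G32020 was also on the list of AT2G41730 (0.842). By rank correlation several of the listed pairs left the first 5 places. For AT2G32020, AT4G19880 was at place 82.5, AT2G47890 at 18, GSTU25 at 12 and AT5G14730 at 9. For AT2G41730, AT2G32020 was at 49 and GSTU22 at 18. For AT5G14730, AT2G32020 was at 26 and UGT73B4 at 9.

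**Figure D3:**
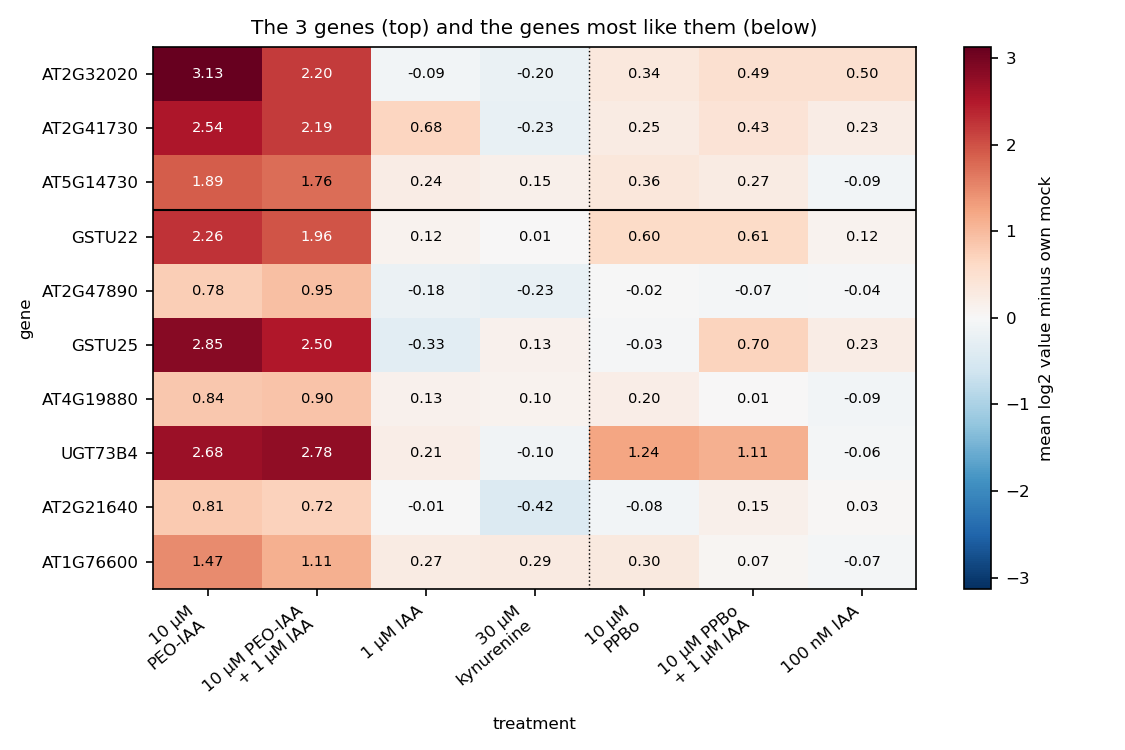
Mean log2 value minus that of the own mock, in 7 treatment groups, for the 3 genes (above the line) and the 7 genes most like them (below it), with red above mock and blue below. The columns with PEO-IAA hold the highest value of every gene, which the way the genes were chosen favours. UGT73B4 with PPBo, at 1.24, is the highest value in the other columns.

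Detoxification genes were set beside the 3 members through a list of 44 loci compiled from general knowledge, of which 9 were tested under a name. In PEO-IAA plus IAA against 1 µM IAA, 4 of the 9 rose, none fell and 5 did not pass, where 0.251% of all tested probe sets were called higher. The median log2 change was 1.15 for the list and 0.00133 for all tested probe sets. Without the third 1 µM IAA array the same 4 were called and the median of the list was 1.13. Those called were UGT73B4 (2.57 ± 0.31, limma adjusted p = 0.00021), GSTU22 (1.85 ± 0.23, adjusted p = 0.000252), GSTU25 (2.84 ± 0.49, adjusted p = 0.00931) and UGT73B5 (1.19 ± 0.21, adjusted p = 0.0115). Not passing were, for example, AT2G04050 at 1.15 ± 0.47, UGT73B1 at 0.45 ± 0.23 and the alkenal reductase AER at 0.05 ± 0.23. The earlier results known when the list was made already showed several of these genes higher with PEO-IAA, so that the list is not independent evidence.

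With PPBo none of the 9 detoxification genes was called in limma and the median was 0.17, with UGT73B4 at 1.24 ± 0.38 (limma, adjusted p = 0.313) and UGT73B5 at 1.01 ± 0.26 (adjusted p = 0.148). With PPBo plus IAA against mock, where 0.377% of tested probe sets were called higher, UGT73B5 was called at 1.16 ± 0.26 (limma, adjusted p = 0.0327), and the median of the 9 was 0.70. The count of 0 stands beside 823 probe sets with an unadjusted p under 0.05 among all tested.

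A list of 16 genes known to respond to stress in mitochondria had 6 tested members. In PEO-IAA plus IAA against 1 µM IAA none of the 6 was called (limma, beside 1953 of all probe sets with an unadjusted p under 0.05), and the median was 0.73. Without the third 1 µM IAA array none was called either (910 with an unadjusted p under 0.05), and the median was 1.06. AT2G04050, which is on both lists, was highest at 1.15 ± 0.47, and AT5G09570 lowest at -0.50 ± 0.37. Against mock, AT5G43450 was the 1 of the 6 called, at 1.09 ± 0.22 (limma, adjusted p = 0.0124), where 0.54% of all tested probe sets were called higher. No member of a list of TGA, SCL14 and NAC regulators and none of the vascular markers was tested under a name here.

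**Figure D4:**
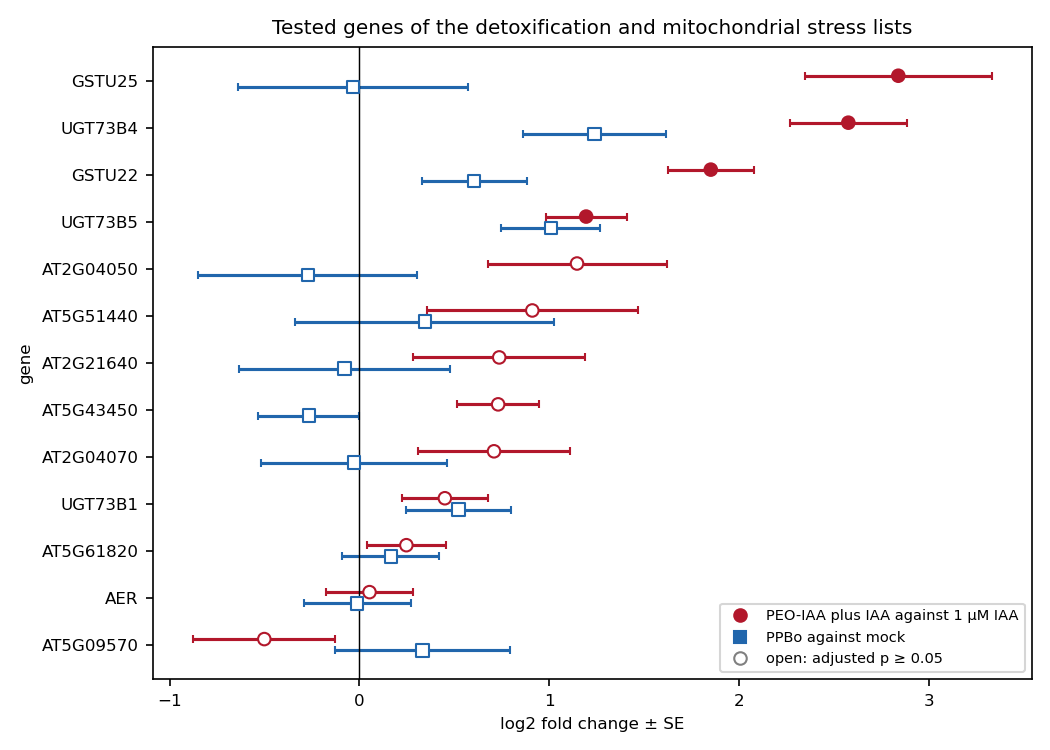
Log2 fold change ± SE of the 13 tested genes of the detoxification and mitochondrial stress lists, with circles for PEO-IAA plus IAA against 1 µM IAA and squares for PPBo against mock, filled where the adjusted p was below 0.05. GSTU25, UGT73B4, GSTU22 and UGT73B5 are filled for PEO-IAA plus IAA, and no gene is filled for PPBo.

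Root hair markers were lower with PEO-IAA alone. Their list was chosen with earlier results of these data known, so that it is not independent evidence. Of 11 such markers 4 were measured under a name (EXPA7, EXPA18, AT3G49960 and AT1G30870), and all 4 were called lower with PEO-IAA against mock, where 0.301% of tested probe sets were, with a summed signal of 122 to 318 on the PEO-IAA arrays and 774 to 1280 on the mock arrays. In PEO-IAA plus IAA against 1 µM IAA none was called with or without the third 1 µM IAA array (limma, adjusted p of 0.562 or more with it and 0.94 or more without it). The summed signal was 446 to 1066 with PEO-IAA plus IAA and 535 to 769 with 1 µM IAA. The part of these markers in the values of the 3 genes was not tested. In whole seedlings fewer cells of a type and less RNA per cell cannot be told apart. The 1 measured leaf marker of 9, LHCB4.2, was at 4581 to 5339 with PEO-IAA plus IAA and 4256 to 4997 with 1 µM IAA. In mock, LHCB4.2 was at 4066 to 5116 in replicates 1 to 3 and 8765 to 10684 in replicates 4 and 5. The summed root hair signal in mock of replicates 4 and 5 was 1752 to 1979, so the mocks of the sets differed in both.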

How the data were processed

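Labelled RNA from 23 seedling samples was hybridised to 1 array each. The deposited intensity values are MAS5 probe set signals, per the submitters' processing notes, which give no version; detection calls were not used here. Arrays were already scaled alike, with a 2% trimmed mean of 500.04 to 500.05, and were not scaled again. Precision is limited by the few arrays per group.

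The 22810 probe sets include 64 controls, which were left out. Values entered as log2(signal + 7.56), the added value being the 10th percentile of all values, and the 15922 probe sets with a mean above the 30th percentile were tested. A limma 3.58.1 fit in R 4.3.3 (lmFit, eBayes with a trended prior) held 9 group means, with 14 residual degrees of freedom, and was tested on simulated data. Each comparison had its own Benjamini-Hochberg adjustment. Names came from the platform annotation (13513 probe sets with 1 gene, 503 with several, 8794 unnamed here), updated to the TAIR10.1 gene table.

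The members, gene lists and tests were chosen with earlier results of these data known. Within replicates 1 to 3, same-numbered arrays of mock, kynurenine, PEO-IAA and PEO-IAA plus IAA deviated together in 18 of 18 pairs. Their correlations were 0.303 to 0.635. Pairs with a 1 µM IAA array did not deviate together (-0.14 to 0.0322). The replicate numbers were used as pairs only in the fits with a replicate block. The main fit had no replicate term, so p-values not given for a blocked fit are unpaired. Named genes are the 3 members, their neighbours by rank with PEO-IAA, the 5 probe sets most like each, and members of the lists. The rule's nearest protein relatives were not used here, since no protein table was at hand. Alternatives changed the added value, the filter, the normalization, the replicate block, the groups and arrays in the fit, array weights and the control.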

Additional observations from a re-analysis of the deposited data

How the results depend on the processing

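Most results kept their direction and their side of the threshold. For PEO-IAA plus IAA against 1 µM IAA, AT2G32020 and AT5G14730 lost their calls with only the groups of the comparison (2.29 and 1.52, adjusted p = 0.372 and 0.338) and in no other alternative run, although a filter at the 50th percentile left AT2G32020 untested. AT2G41730 gained a call there with array weights (1.86, adjusted p = 0.0121) and with the replicate block together with leaving out the third 1 µM IAA array (2.04, adjusted p = 0.0111), an alternative chosen after seeing the data. For PEO-IAA plus IAA against mock, only the groups of the comparison ended the calls of AT2G32020 (2.20, adjusted p = 0.104) and AT2G41730 (2.19, adjusted p = 0.147), and leaving out 1 array at a time moved AT2G41730 between 1.86 and 2.72, with 3 of 7 such fits uncalled. For the difference between the responses to PEO-IAA plus IAA and PPBo plus IAA, mock replicates 1 to 5 as 1 control gave calls at 1.59 (AT2G32020), 3.11 (AT2G41730) and 1.53 (AT5G14730), but it drops each set's own mock and so puts the difference between the sets into the value. AT5G14730 was also called with array weights (1.62, adjusted p = 0.0221) and in a blocked fit that left out the third 1 µM IAA array (1.49, adjusted p = 0.0155) or the whole 1 µM IAA group (1.49, adjusted p = 0.00495), both chosen after seeing the data. The cause of these changes was not tested.

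The replicate block by itself changed no call of the 3 genes, with AT2G32020 at 2.29 (adjusted p = 0.0024) and AT5G14730 at 1.52 (adjusted p = 0.00328) for PEO-IAA plus IAA against 1 µM IAA. The numbers of the 1 µM IAA arrays did not pair with the rest, also with the third left out (-0.215 to 0.116 in 8 pairs), and 12 of the 15 arrays of replicates 1 to 3 correlated best with their own number. In replicates 4 and 5 all 8 did, with a median correlation of 0.048. With 2 arrays per group the deviations within a group mirror each other, so these 8 are not separate observations. The blocked fit without the 1 µM IAA group changed no other call of the 3 genes.

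Counts of called probe sets moved more than the genes. PEO-IAA plus IAA against 1 µM IAA had 59 calls and 0 to 398 in the alternatives, PEO-IAA plus IAA against mock 181 and 51 to 809, PEO-IAA plus IAA against PEO-IAA 215 and 97 to 693, and PEO-IAA against mock 105 and 55 to 427. The count was 356 and 69 to 1775 for 1 µM IAA, 2 and 0 to 10 for kynurenine, 58 and 17 to 365 for PPBo, 156 and 63 to 655 for PPBo plus IAA against mock, 104 and 50 to 394 against PPBo, 57 and 12 to 494 for 100 nM IAA, and 8 and 1 to 434 for the difference of responses. An added value of 50 moved AT2G32020 in PEO-IAA against mock to 2.46, since the gene is dim in mock.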

Other observations

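The genes beside the members in the gene table were read after the data were seen. AT2G32030, next to AT2G32020, was at -0.02 ± 0.31 in PEO-IAA plus IAA against 1 µM IAA (limma, adjusted p = 0.979), or -0.07 without the third 1 µM IAA array, and at 0.54 in PEO-IAA against mock, where AT2G32020 was at 2.29 and 3.13. AT5G14720, next to AT5G14730, was at 0.39 ± 0.22 (limma, adjusted p = 0.425), or 0.06 without that array, and at -0.01 in the same comparisons. The other neighbours had no probe set naming them alone here.

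Lists of wound and touch genes and of hypoxia genes had 1 tested gene each. In PEO-IAA plus IAA against 1 µM IAA, the zinc finger gene STZ of the wound and touch list was at 0.28 ± 0.67 (limma, adjusted p = 0.862) and AT3G10040 of the hypoxia list at -0.28 ± 0.62 (adjusted p = 0.847), neither called. Without the third 1 µM IAA array they were at -0.32 and -0.54, again neither called.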
